A study of Branchiostoma lanceolatum with 8 samples.

Results

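Activin-treated and untreated ectodermal explants of the amphioxus Branchiostoma lanceolatum were compared at 19 hours post fertilization (hpf) across every gene that the authors tested at that time. The members are all 16733 rows of the authors' deposited table for 19 hpf, out of 18998 rows found in that table or in the one for 11 hpf. Explants are pieces of the outer embryonic layer, cut off and cultured on their own. The study left explants untreated or gave them human recombinant Activin at 50 ng/mL, and collected them at 11 or 19 hpf, which makes 4 groups of 2 libraries. The groups used here are the untreated control at 19 hpf (2 libraries) and Activin at 19 hpf (2 libraries), and no label gives a strain, genotype or vehicle for either. By the series design, a library pooled explants of embryos from several fertilizations, so a replicate is a pool and p-values measure the spread between such pools. RNA was selected for poly(A) tails, per the labels' protocols.

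Activin is a secreted ligand of the TGF-beta family that binds the same receptors as Nodal and acts through the transcriptional effectors SMAD2 and SMAD3. In chordate embryos, Nodal signalling specifies mesoderm and endoderm and the dorsal organizer, a source of secreted BMP antagonists. Ectoderm that keeps BMP signalling forms epidermis, which in amphioxus bears motile cilia, while ectoderm shielded from BMP forms neural plate, patterned along its axis by homeobox genes and then populated by neurons that follow proneural bHLH factors.

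Values per library were not analysed here. Control and Activin levels are group means of normalized counts, rebuilt from the mean and the log2 fold change in the authors' deposited table with equal weight for both groups. They are written in that order, followed in parentheses by the log2 fold change of Activin over control ± the authors' standard error (SE), with n = 2 libraries per group. A gene is said to have risen or fallen only where the Benjamini-Hochberg adjusted p of the authors' deposited table was below 0.05, two-sided. Which group was divided by which is not named in the file headers. The sign was taken from genes that Nodal/Activin signalling induces in other chordates: LEFTY2, CHRD and GSC were positive, and positive was therefore taken to mean higher in Activin. The signs of these genes are no independent evidence. In bulk RNA, fewer cells of a type and less RNA per cell cannot be told apart. Levels are not scaled to transcript length and are not compared between genes.

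Most epidermal structural genes, ciliary genes and cytochrome P450 genes were lower in Activin explants at 19 hpf, while nearly all nucleolar factors and most mitosis genes were higher. After centring on ribosomal protein genes, a scaling given below, 65 of 89 nucleolar rows but only 20 of 90 mitosis rows were called higher. Regional regulators of the neural plate and neurogenic factors were higher more often than lower. Of the 16733 rows, 7768 (46.4%) were called, 3128 (18.7%) higher and 4640 (27.7%) lower. Changes of at least 2-fold made up 2926 of the higher and 4490 of the lower calls, and changes of at least 16-fold made up 403 and 1604. The median log2 fold change over all rows was 0.07. The lower share of calls, 59.7%, moved with the scaling between treatments: it was 52.4% after centring on the median of rows with a mean of at least 100, 44.8% after upper-quartile scaling, 37.1% after scaling to equal totals and 84.9% after centring on ribosomal protein genes. These scalings shifted log2 fold changes by 0.26, 0.54 and 0.86 upward and by 1.03 downward, in that order. Where the larger side of a gene group turned under a scaling, the counts under at least 1 such scaling are given with it.

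The control libraries carried the markers of a ciliated epidermis. The summed level of 75 rows of motile cilia was 250683 in control and 28518 in Activin, and that of 39 epidermal rows was 1269510.0 and 71088. Neural plate regulators summed to 76077 and 74186, and neurogenesis genes to 30833 and 81914. The part of such shifts in cell types in other results was not tested. The list of keratins and other cornification genes took 8.68% of all normalized counts in control and 0.638% in Activin. The 10 most counted rows held 17.1% of the control total and 5.19% of the Activin total, and 1 row, KRT8 (BL15060), stood in both top sets of 10. All 10 rows with the highest mean over both groups fell. The rebuilt totals were 14037944 for control and 7745005 for Activin, a ratio of 1.81. Depth per library is unknown from this table. The median SE was 0.65 over all rows and 0.33 over the 2112 rows with a mean of at least 1000. Symbols cover 11333 rows, and 4859 of these share theirs with another row, so reads of similar copies could be split between rows and identifiers are given throughout.

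**Figure D1:**
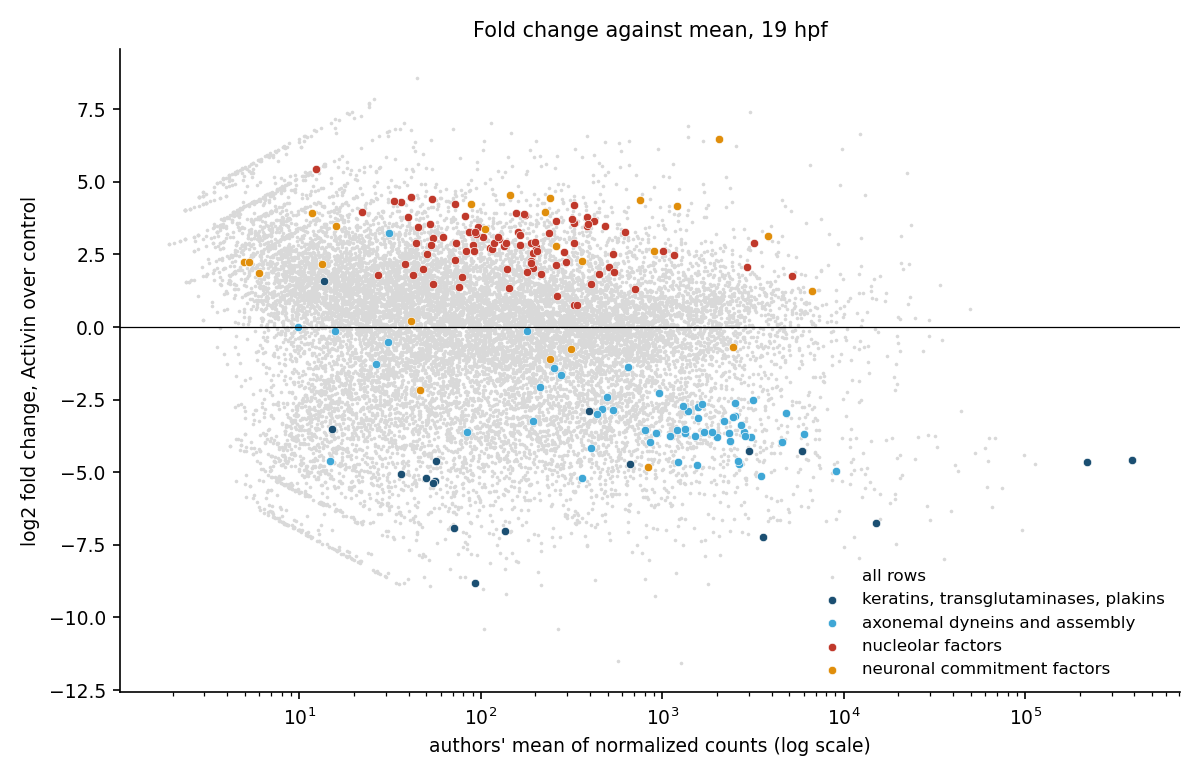
Log2 fold change of Activin over control against the authors' mean of normalized counts (log scale), 1 point for each of the 16733 rows at 19 hpf. Keratins and related genes and axonemal dyneins lie below 0 with few exceptions, the nucleolar factors all lie above 0, and the neuronal commitment factors lie mostly above it, with 13 of 25 called higher and 3 lower.

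The 10 largest rises among named genes included a secreted Nodal antagonist and neural genes. In the authors' deposited table TECTA (BL04360), whose vertebrate counterpart is a matrix protein of the inner ear, rose from 35.2 to 6025 (7.42 ± 0.37), with the authors' adjusted p = 1.81e-86. LEFTY2 (BL04376), a secreted antagonist of Nodal, rose from 22.9 to 2765 (6.92 ± 0.43), and it belongs to the genes that set the sign. NEUROG3 (BL06125), a proneural bHLH factor, rose from 45.8 to 4040.2 (6.46 ± 0.36). The forebrain zinc finger gene FEZF2 (BL22721) rose from 66.3 to 5001 (6.24 ± 0.39). PRDM8 (BL16061), a PR domain zinc finger gene of the mouse nervous system, rose from 14.3 to 1147 (6.33 ± 0.48). APOB (BL97090), named after the apolipoprotein of lipid particles, rose from 7.93 to 759 (6.58 ± 0.68), and CDR2L (BL12201) rose from 39.6 to 3332 (6.39 ± 0.40). A gel-forming mucin gene, MUC2 (BL97089), rose from 273 to 19321 (6.14 ± 0.35), against the direction of most mucin rows. Control means of these 8 genes lay at or below 273 normalized counts.

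The 10 largest falls included genes of secreted enzymes, microtubules and epithelium. OVCH1 (BL09763), an ovochymase-type serine protease, fell from 3561 to 7.66 (-8.86 ± 0.55) in the authors' deposited table, adjusted p = 2.14e-56. TPPP3 (BL23141), named after a tubulin polymerization promoting protein, fell from 1609.8 to 3.91 (-8.69 ± 0.60). Named after peroxidasin, an extracellular peroxidase that cross-links collagen in animals, PXDN (BL21735) fell from 71313 to 280.4 (-7.99 ± 0.37) and PXDN (BL12043) from 24148 to 96.5 (-7.97 ± 0.33). The centrin gene CETN1 (BL19861), of the basal body and centrosome, fell from 3442 to 14.7 (-7.87 ± 0.50). TMEM79 (BL21026), named after a barrier protein of mammalian epidermis, fell from 1442 to 7.92 (-7.51 ± 0.49). The same 10 held the organic anion transporter SLCO3A1 (BL95354), from 766 to 4.13 (-7.54 ± 0.62), the enteropeptidase-like PRSS7 (BL04692), from 3417 to 21.2 (-7.33 ± 0.38), and TTN (BL96427), annotated as titin, from 22683 to 151 (-7.23 ± 0.32). Titin is the giant elastic protein of the sarcomere in vertebrate muscle.

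**Figure D2:**
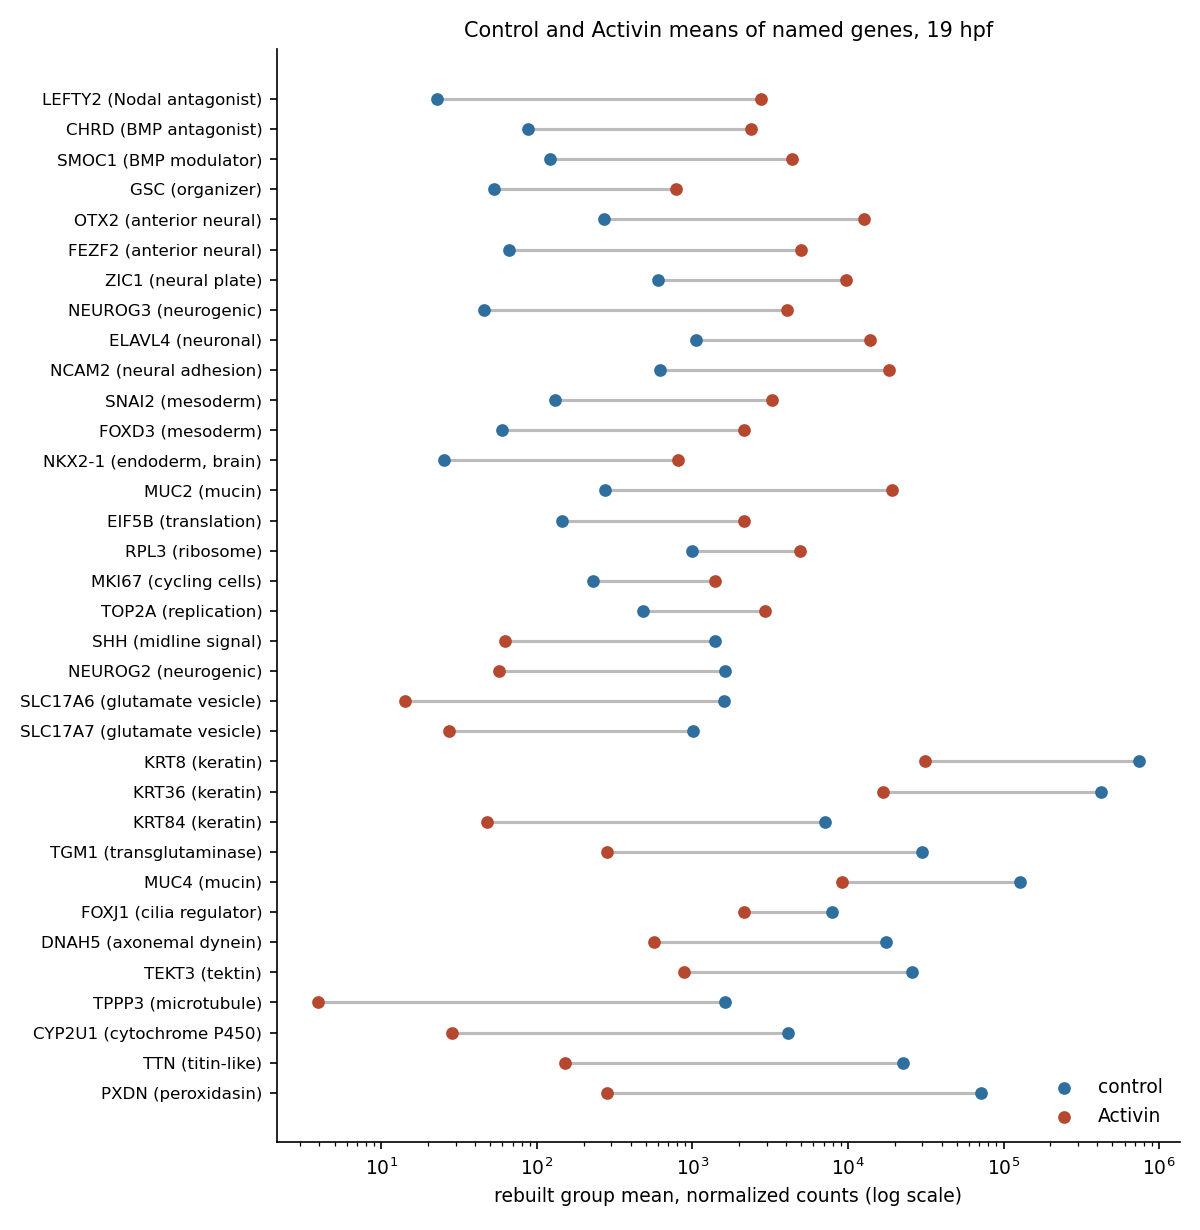
Rebuilt control (blue) and Activin (red) means of 34 named genes at 19 hpf, in normalized counts on a log scale, each pair joined by a line. In the upper 18 genes, from LEFTY2 (22.9 to 2765) to TOP2A, the Activin mean lies right of the control mean, and in the lower 16, from SHH to PXDN and with TPPP3 (1609.8 to 3.91), it lies left of it.

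Genes of the Nodal/Activin pathway and of BMP modulation rose more often than they fell. Of 15 Nodal/Activin rows 8 rose and 1 fell, against 18.7% higher and 27.7% lower over all rows. The median was 1.40, with 4 higher and 5 lower on ribosomal centring. The 8 that rose include LEFTY2, which helped set the sign. SKI (BL02854), a corepressor of SMADs, rose from 416 to 1646 (1.98 ± 0.35), and the Activin-binding protein gene FST (BL00960) rose from 5.41 to 164 (4.92 ± 0.80). FOXH1 (BL18773), the forkhead partner of SMAD2 and SMAD3, fell from 1199.5 to 531 (-1.17 ± 0.35), but was not called after upper-quartile scaling (-0.63) or with equal totals (-0.32). Among 19 rows of extracellular BMP modulators 7 rose and 2 fell, median 2.06. CHRD (BL24510), the BMP antagonist chordin that also set the sign, rose from 88.2 to 2369.9 (4.75 ± 0.37), and SMOC1 (BL22030), a secreted calcium-binding BMP modulator, rose from 121 to 4374 (5.17 ± 0.33). The BMP pseudoreceptor gene BAMBI (BL06201), a target of BMP in vertebrates, fell from 1142 to 366 (-1.64 ± 0.36), a call lost with equal totals (-0.79). The rows named BMP2 split: BMP2 (BL21413) rose from 6.297 to 292 (5.53 ± 0.72) and BMP2 (BL12966) fell from 1057 to 345 (-1.61 ± 0.36), the fall not being called with equal totals (-0.76).

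Organizer regulators rose or were not called, while midline signals and Hedgehog genes split. Of 7 organizer regulators 5 rose and 0 fell, while of 7 midline and organizer signals 4 rose and 2 fell. The rises include GSC among the regulators and LEFTY2 and CHRD among the signals, the genes that set the sign. GSC (BL18678), the organizer homeobox gene among those that set the sign, rose from 53.2 to 784 (3.88 ± 0.52) in the authors' deposited table, and the LIM homeobox gene LHX1 (BL00881) rose from 157 to 1469 (3.23 ± 0.36). SHH (BL96143), the hedgehog ligand of the midline in chordates, fell from 1397 to 62.4 (-4.48 ± 0.40). Another row named after a hedgehog ligand, IHH (BL06963), rose from 30.5 to 130.3 (2.10 ± 0.72). DKK3 (BL23931), a Dickkopf-family secreted protein, fell from 2065 to 419.8 (-2.30 ± 0.33). Hedgehog pathway rows numbered 4 higher and 4 lower of 12, but 7 and 4 after upper-quartile scaling, 8 and 3 when totals were made equal and 1 and 5 on ribosomal centring. The hedgehog-binding membrane protein gene GAS1 (BL20128) rose from 839.5 to 3998 (2.25 ± 0.33) and the Hedgehog effector GLI2 (BL15145) from 1232 to 2868 (1.22 ± 0.32), the latter not called on ribosomal centring (0.19). The 4 that fell were SHH, the Hedgehog-binding antagonist HHIP and 2 rows named HHAT, after the acyltransferase that lipid-modifies the ligand, with HHAT (BL20019) moving from 242 to 34.2 (-2.82 ± 0.58).

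Wnt, FGF and Notch components moved in both directions within each pathway. Wnt receptors numbered 6 higher and 2 lower of 13, which became 3 and 5 on ribosomal centring, and Wnt antagonists 3 and 7 of 18, which became 5 and 5 when totals were made equal. FZD1 (BL18904), a Frizzled receptor, rose from 26.9 to 1278 (5.57 ± 0.44), whereas FZD5 (BL13381), the Frizzled of anterior ectoderm in chordates, fell from 17312 to 4851 (-1.84 ± 0.31). KREMEN1 (BL21939), named after a Dickkopf receptor and among the 10 most counted rows in control, fell from 119561 to 4931 (-4.60 ± 0.41). Another row of that name, KREMEN1 (BL10815), rose from 13.9 to 76.8 (2.47 ± 0.98). Rows named NOTUM, after the secreted Wnt deacylase, split, with NOTUM (BL08884) rising from 7.32 to 83.6 (3.52 ± 0.95) and NOTUM (BL06981) falling from 375 to 18.5 (-4.34 ± 0.58). The FGF receptor row FGFR3 (BL14111) fell from 901 to 19.01 (-5.57 ± 0.46) while FGF17 (BL22753), an FGF ligand, rose from 24.4 to 181 (2.88 ± 0.65) and the feedback inhibitor SPRY2 (BL12625) rose from 545 to 2047 (1.91 ± 0.34). Of 23 Notch targets and modifiers 9 rose and 1 fell, or 4 and 5 on ribosomal centring. The Notch ligand DLL1 (BL24552) rose from 319.9 to 1398 (2.13 ± 0.36) and the Notch feedback gene NRARP (BL09279) from 132 to 995 (2.91 ± 0.38). Of the rows named NOTCH1, NOTCH1 (BL07708) rose from 164 to 693 (2.08 ± 0.39) and NOTCH1 (BL03594) fell from 7739.8 to 242 (-4.998 ± 0.42).

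Genes for making and binding retinoids fell more often than they rose. Of 41 rows of retinoic acid synthesis, binding and reception 24 fell and 2 rose, median -1.93, in the authors' deposited table. CRABP2 (BL11591), a cytoplasmic retinoic acid binding protein, fell from 30986 to 571 (-5.76 ± 0.33). RARB (BL10401), a nuclear retinoic acid receptor, lay at 1662 and 2426 (0.55 ± 0.32) and was not called. Of 6 rows of Hox and ParaHox genes, which pattern the trunk under retinoic acid in chordates, 1 rose, HOXC4 (BL14546), from 149 to 309 (1.06 ± 0.46), with the authors' adjusted p = 0.0471, and 0 fell, while ribosomal centring gave 0 higher and 1 lower.

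Regional regulators of the neural plate and ectoderm rose more often than they fell. Of 39 regional regulators 19 rose and 10 fell, with a median of 2.69. OTX2 (BL18685), the homeobox regulator of forebrain and midbrain identity, rose from 268 to 12718 (5.57 ± 0.31). EN2 (BL18701), an Engrailed gene, rose from 12.1 to 708 (5.87 ± 0.53) and is listed at 19 hpf only. EMX2 (BL04899), a homeobox gene of the vertebrate forebrain and likewise absent at 11 hpf, fell from 365 to 8.49 (-5.43 ± 0.58). The 4 rows named FOXB1, a forkhead gene of the neural plate, split, with FOXB1 (BL06232) rising from 3.67 to 187 (5.67 ± 1.06) and FOXB1 (BL22763) falling from 26382 to 1741 (-3.92 ± 0.30). The 7 rows of SoxB, SoxC and Zic genes, which mark neural competence and early neurons, held 5 that rose and 0 that fell. This count became 2 and 2 on ribosomal centring. ZIC1 (BL15923), a zinc finger gene of the neural plate, rose from 603 to 9641 (3.999 ± 0.31), SOX4 (BL06291), a SoxC gene of immature neurons, rose from 219 to 2704 (3.63 ± 0.33), and SOX2 (BL16399), a SoxB gene, lay at 7619.7 and 8542 (0.16 ± 0.32), not called.

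Neuronal commitment genes rose more often than they fell. Among 25 rows 13 rose and 3 fell, median 2.63. OLIG3 (BL19561), a bHLH factor of neural progenitors, rose from 11.7 to 278 (4.57 ± 0.63) and LHX3 (BL17252), a LIM homeobox gene of motor neurons and interneurons in vertebrates, from 20.9 to 460.1 (4.46 ± 0.55). NEUROG2 (BL17845), named as another neurogenin, fell from 1617 to 57.3 (-4.82 ± 0.37), opposite to NEUROG3. Among 24 RNA-binding and structural markers of neurons 9 rose and 6 fell, turning to 7 and 9 on ribosomal centring. ELAVL4 (BL11117), the neuronal Elav RNA-binding protein, rose from 1056 to 13956 (3.72 ± 0.30), NCAM2 (BL03904), a neural cell adhesion molecule, from 621 to 18433 (4.89 ± 0.31), and CELF3 (BL10052), a neuronal splicing regulator, from 24.98 to 1145 (5.52 ± 0.51). The 3 stathmin rows, named after regulators of microtubule growth, split, with STMN2 (BL15646) and STMN3 (BL20522) falling, from 391 to 22.9 (-4.09 ± 0.56) and from 5163 to 502 (-3.36 ± 0.32), and another STMN3 row called higher.

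Genes of transmitter supply and potassium channels fell more often than they rose. Of 42 rows for synthesis and transport of transmitters 20 fell and 5 rose, of 49 ligand-gated receptor rows 13 and 3, and of 46 potassium channel rows 25 and 4. The vesicular glutamate transporters SLC17A6 (BL19507) and SLC17A7 (BL14002) fell, from 1607 to 14.1 (-6.83 ± 0.47) and from 1003 to 27.3 (-5.20 ± 0.42). Of 12 rows named after glycine transporters 4 rose and 3 fell, with SLC6A9 (BL06534) rising from 184 to 3379 (4.201 ± 0.37) and SLC6A5 (BL00405) from 230.5 to 3155 (3.78 ± 0.33). GLRA3 (BL10592), a glycine receptor subunit, fell from 318 to 6.39 (-5.64 ± 0.68). The potassium channel gene KCNK10 (BL01436) fell from 464 to 8.49 (-5.77 ± 0.55) and KCND3 (BL23044) rose from 10.5 to 130.0 (3.64 ± 0.79). Ligand-gated receptors were scarce, with 28 of 49 rows under a mean of 20, the 26.5% called lower lay near the 27.7% of all rows, and their median of -0.05 turned positive under the 3 scalings that raise fold changes.

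Synaptic vesicle, postsynaptic and peptide receptor genes moved in both directions. Of 48 vesicle release genes 10 rose (20.8%) and 14 fell (29.2%), near the 18.7% and 27.7% of all rows. These counts became 12 and 10 after upper-quartile scaling and 15 and 8 with equal totals. RIMS2 (BL21172), a protein of the presynaptic active zone, rose from 27.1 to 537 (4.31 ± 0.52) and RAB3C (BL00608), a small GTPase of secretory vesicles, fell from 18308 to 1293 (-3.82 ± 0.33). Of 18 postsynaptic and adhesion rows 2 rose (11.1%) and 3 fell (16.7%), or 4 and 3 with equal totals. CNTNAP1 (BL39045), a neurexin-related adhesion protein of neurons and among the 10 most counted rows in Activin, rose from 1092 to 43638 (5.32 ± 0.30). The falls were DLG1 (BL14062), from 11110 to 1383 (-3.01 ± 0.31), CNTNAP2 (BL16278), from 17167 to 3677 (-2.22 ± 0.32), and CNTNAP2 (BL02154), from 301 to 4.13 (-6.19 ± 0.69). G protein-coupled receptors for peptides and orphans numbered 8 higher and 19 lower of 52, with 18 and 10 when totals were made equal. Rows named GPR112, an adhesion-type receptor, ran in both directions, with GPR112 (BL10689) rising from 6.95 to 415 (5.90 ± 0.66) and GPR112 (BL00508) falling from 973 to 29.5 (-5.05 ± 0.41) in the authors' deposited table.

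Axon guidance showed a split by role. Guidance ligands numbered 11 higher and 3 lower of 21, median 2.58, and guidance receptors and adhesion partners 4 higher and 14 lower of 31, median -1.53. Neither side turned under any of the 4 scalings, and no test of the difference between both roles was made. The repellent SLIT1 (BL52023) rose from 45.3 to 2241 (5.63 ± 0.41), and NTN1 (BL56556), the midline attractant netrin, rose from 44.1 to 719.8 (4.03 ± 0.47). ROBO1 (BL01250), a receptor for Slit, rose from 1336 to 7256 (2.44 ± 0.31), while UNC5A (BL01666), a receptor for netrin repulsion, fell from 715 to 19.99 (-5.16 ± 0.45) and the contactin CNTN3 (BL06071) fell from 3204 to 217 (-3.88 ± 0.32). NEO1 (BL15756), a receptor for netrin and repulsive guidance molecules, lay at 3816 and 4807 (0.33 ± 0.30), not called.

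Most mesoderm regulators rose, and endoderm regulators rose more often than they fell. Muscle structural genes split, at shares of calls somewhat below those of all rows. Of 22 mesoderm rows 13 rose and 2 fell, and their summed level moved from 5438 in control to 14852 in Activin. Lists can share rows: the largest log2 fold change of this list, 6.58, is also that of the neural plate regional regulators. The forkhead gene FOXD3 (BL05120) rose from 59.5 to 2131 (5.16 ± 0.38), SNAI2 (BL20923), a zinc finger gene of migrating cells, from 130.4 to 3255 (4.64 ± 0.34), and PAX7 (BL95936), a paired box gene, from 18.5 to 394 (4.41 ± 0.57). The Brachyury rows, named T, lay at 41.4 and 85.3 (1.04 ± 0.72) for BL23554, not called, and rose from 318 to 654 (1.04 ± 0.40) for T (BL23557), with the authors' adjusted p = 0.0245 and no call on ribosomal centring. Contractile genes numbered 8 higher (14.5%) and 13 lower (23.6%) of 55, against 18.7% and 27.7% of all rows, and summed to 99867 and 49969.9. They numbered 12 and 11 after centring on the median of rows with a mean of at least 100. Upper-quartile scaling gave 15 and 10. Tropomyosin rows split, with TPM3 (BL12254) rising from 235 to 4619 (4.30 ± 0.33) and TPM3 (BL95000) falling from 10900.2 to 346 (-4.98 ± 0.32), and the muscle actin-type row ACTC1 (BL19911) rose from 18.9 to 201 (3.41 ± 0.73). Endoderm regulators numbered 6 higher and 2 lower of 17, 3 and 3 on ribosomal centring, and summed to 10450.3 and 16840.5. NKX2-1 (BL15126), a homeobox gene of anterior endoderm and forebrain, rose from 25.3 to 802 (4.99 ± 0.55), and GATA4 (BL08554), a zinc finger gene of endoderm and heart, fell from 3382 to 395 (-3.10 ± 0.32). The part of such cells in the changes of other lists was not tested.

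Germ plasm and piRNA genes rose more often than they fell. Of 24 rows 12 rose and 1 fell, and the list summed to 15522 in control and 23688 in Activin. The Tudor domain genes TDRD9 (BL14915) and TDRD6 (BL00364), of the piRNA pathway, rose from 49.5 to 456 (3.20 ± 0.48) and from 78.5 to 693 (3.14 ± 0.41). The row that fell, PIWIL1 (BL97334), carries the name of a Piwi protein that binds piRNAs and moved from 2219 to 473 (-2.23 ± 0.35) in the authors' deposited table.

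Epidermal structural genes fell almost without exception. Of 18 rows of keratins, transglutaminases and plakins 17 fell and 0 rose, with a median of -4.89. TGM1 (BL09044), a transglutaminase that cross-links the cornified envelope in mammals, fell from 29949 to 281 (-6.74 ± 0.31), and the keratin row KRT84 (BL19675) fell from 7159 to 48.01 (-7.22 ± 0.39). KRT36 (BL22645) fell from 421743 to 16899.7 (-4.64 ± 0.33). KRT8 (BL15060), the most counted row of the table, fell from 739980.0 to 31113 (-4.57 ± 1.52) with the authors' adjusted p = 0.00766, and its SE stood apart: only 3 of the 2112 rows with a mean of at least 1000 had an SE above 1. The row not called, TGM1 (BL23394), lay at 6.86 and 20.5 (1.58 ± 1.44). The regulators of non-neural ectoderm were less uniform, 9 lower and 4 higher of 21, or 7 and 7 when totals were made equal. GATA2 (BL18478), a zinc finger regulator of epidermis, fell from 6445 to 899 (-2.84 ± 0.37) and the Krüppel-like factor KLF5 (BL18544) fell from 938 to 86.8 (-3.43 ± 0.40), while both rows named after the epithelial regulator TP63, TP63 (BL04328) and TP63 (BL19570), rose, from 206 to 1292 (2.65 ± 0.37) and from 61.997 to 390.3 (2.65 ± 0.47).

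Mucin and glycan-building genes fell more often than they rose. Mucin-type rows numbered 7 lower and 2 higher of 19, and glycosyltransferase and sulfotransferase rows 87 lower and 21 higher of 155, median -2.65. MUC4 (BL11100), named after a membrane mucin, fell from 127729 to 9104 (-3.81 ± 0.30). The sialyltransferases split: ST8SIA2 (BL35673), whose vertebrate counterpart builds polysialic acid on neural cell adhesion molecules, rose from 17.7 to 1168 (6.05 ± 0.49), and ST8SIA4 (BL03135) and ST8SIA1 (BL86184) fell, from 579 to 6.704 (-6.43 ± 0.56) and from 1233 to 15.9 (-6.28 ± 0.44). The sulfotransferase row CHST3 (BL08080), of chondroitin sulfate, fell from 947 to 18.9 (-5.65 ± 0.44).

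Genes of the ciliary axoneme fell with few exceptions, while of 6 cilia regulators 2 fell and 1 rose, or 1 fell and 3 rose under both upper-quartile and equal-total scaling. Of 56 rows of axonemal dyneins, radial spokes and assembly factors 50 fell and 1 rose, with a median of -3.44, and all 13 rows of tektins and microtubule inner proteins fell. DNAH5 (BL15852), an outer arm dynein heavy chain, fell from 17612 to 565 (-4.96 ± 0.35), and DNAH2 (BL02228), an inner arm heavy chain, fell from 6768 to 195 (-5.12 ± 0.38). TEKT3 (BL11351), a tektin filament protein of doublet microtubules, fell from 25833 to 887 (-4.86 ± 0.35). FOXJ1 (BL13340), the forkhead master regulator of motile ciliogenesis, fell from 7941 to 2133 (-1.90 ± 0.33), and RFX4 (BL16476), a regulator of the RFX family, rose from 15.3 to 150.3 (3.29 ± 0.73). Intraflagellar transport and BBSome genes, which build and service all cilia, numbered 32 lower and 1 higher of 46, median -2.26, with IFT172 (BL01131) falling from 2789 to 163 (-4.10 ± 0.33). The transition zone and centrosome genes numbered 11 lower and 8 higher of 51 and turned to 8 and 17 when totals were made equal. Tubulins, kinesins and cytoplasmic motors numbered 48 lower and 12 higher of 97. TUBA1C (BL07665), an alpha-tubulin, fell from 5629 to 65.3 (-6.43 ± 0.33), whereas the mitotic kinesin KIF15 (BL17005) rose from 32.9 to 247 (2.91 ± 0.57).

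Genes of ribosome production rose with few exceptions among nucleolar factors and ribosomal proteins. Of 89 rows of nucleolar factors, which process and assemble ribosomal RNA, 83 rose and 0 fell, with a median of 2.88, 1.85 on ribosomal centring. NAT10 (BL04864), an RNA acetyltransferase of the nucleolus, rose from 4.79 to 103 (4.43 ± 0.91), and WDR3 (BL96637), a subunit of the small subunit processome, rose from 3.58 to 79.1 (4.46 ± 1.03). LTV1 (BL21434), an export factor of the small subunit, lay at 253 and 425 (0.75 ± 0.42), not called. Among 24 rows of RNA polymerases I and III 7 rose and 0 fell, with the large subunits of polymerase I, POLR1A (BL11235) and POLR1B (BL23647), rising from 79.3 to 714 (3.17 ± 0.41) and from 18.7 to 284 (3.93 ± 0.57). Cytosolic ribosomal proteins numbered 56 higher and 1 lower of 68, with a smaller median of 1.03, and the interquartile range was 0.85 to 1.26. RPL3 (BL21783), of the large subunit, rose from 990.0 to 4891 (2.30 ± 0.31) and RPS2 (BL23589), of the small subunit, from 1802 to 7402 (2.04 ± 0.31). The row that fell, FAU (BL16814), fell from 147 to 9.02 (-4.02 ± 0.83) and encodes a ubiquitin-like fusion with a small subunit protein in vertebrates. Centring on these genes removes their own median by construction, and the small subunit then stood at -0.04.

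Genes of translation and protein degradation rose more often than they fell. Mitochondrial ribosomal proteins numbered 35 higher and 0 lower of 63, and proteasome subunits 37 and 1 of 43, median 1.73. On ribosomal centring these counts became 7 and 0 for mitochondrial ribosomal proteins and 15 and 1 for the proteasome. PSMD13 (BL03829), a lid subunit of the proteasome, rose from 386 to 2900.0 (2.91 ± 0.39), and PSME3 (BL16973), a proteasome activator, from 60.5 to 768 (3.67 ± 0.41). Translation initiation and elongation factors numbered 35 higher and 4 lower of 64, or 12 and 16 on ribosomal centring. EIF5B (BL21976), a GTPase of subunit joining, rose from 146 to 2161 (3.89 ± 0.39), but of 4 rows named EIF5A, after the hypusine-bearing elongation factor, 3 fell and 1 rose, with EIF5A (BL16766) falling from 1612 to 10.8 (-7.22 ± 0.46). Spliceosome genes numbered 51 higher and 2 lower of 103, or 13 and 15 on ribosomal centring, with the splicing factor SRSF1 (BL14963) rising from 13.7 to 829.7 (5.92 ± 0.50) and SRRM1 (BL23258) falling from 4551 to 242 (-4.24 ± 0.38). Chaperones numbered 29 higher and 12 lower of 70, turning to 8 and 19 on ribosomal centring.

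Calls in genes of respiration were few as deposited and followed the scaling. Respiratory complexes I to IV numbered 2 higher and 4 lower of 51, with a median of -0.01. They numbered 8 and 2 after centring on the median of rows with a mean of at least 100. Upper-quartile scaling gave 9 and 1, equal totals 27 and 1, and ribosomal centring 1 and 32. CYCS (BL01977), named after cytochrome c, which carries electrons and triggers apoptosis, fell from 3223 to 116 (-4.80 ± 0.37), and COX5A (BL12524), a cytochrome oxidase subunit, lay at 1679 and 1471 (-0.19 ± 0.33), not called. Tricarboxylic acid cycle genes numbered 3 higher and 5 lower of 20, 7 and 1 when totals were made equal and 2 and 12 on ribosomal centring. Isocitrate dehydrogenases split, with IDH2 (BL20705), the mitochondrial form, rising from 1516 to 8401 (2.47 ± 0.31) and IDH1 (BL07436), the cytosolic form, falling from 5799 to 1255 (-2.21 ± 0.32). The difference between ribosome production and respiration was not itself tested.

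**Figure D3:**
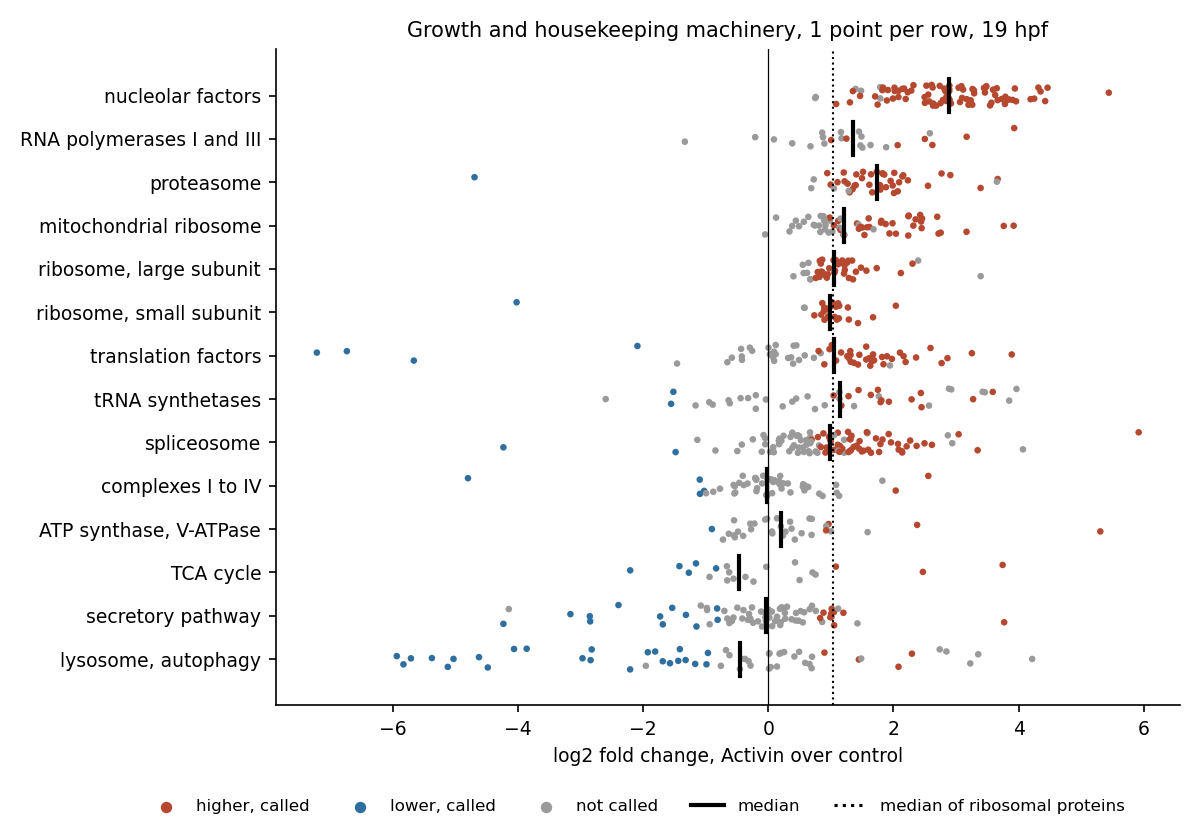
Log2 fold change of Activin over control at 19 hpf for each row of 14 groups of growth and housekeeping genes, coloured by the authors' adjusted p below 0.05. The median of nucleolar factors (2.88) lies right of the dotted median of ribosomal proteins (1.03), and the median of respiratory complexes I to IV lies at -0.01.

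Genes of DNA replication and mitosis rose more often than they fell. Mitosis genes numbered 52 higher and 2 lower of 90, median 1.96, and replication and repair genes 35 and 2 of 93, median 1.82. On ribosomal centring most of these calls were lost, leaving 20 and 6 for mitosis and 15 and 3 for replication and repair. MKI67 (BL96250), a marker of cycling cells, rose from 228 to 1400.2 (2.62 ± 0.36), BUB3 (BL20329), a spindle checkpoint protein, from 142 to 1076 (2.92 ± 0.37), and TOP2A (BL08057), a topoisomerase that untangles chromosomes, from 480.3 to 2907 (2.60 ± 0.34). The cyclin CCND2 (BL09783), of entry into the cell cycle, rose from 398 to 2381 (2.58 ± 0.34). CENPE (BL06695), a kinetochore motor, fell from 379.6 to 67.1 (-2.50 ± 0.47) and RFC1 (BL20598), a subunit of the clamp loader, fell from 112 to 24.2 (-2.21 ± 0.78). RFC1 was not called after upper-quartile scaling (-1.67) or with equal totals (-1.35).

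Chromatin and zinc finger genes rose more often than they fell. Readers, writers and remodelers of chromatin numbered 60 higher and 17 lower of 142, or 21 and 38 on ribosomal centring. SSRP1 (BL11428), a histone chaperone subunit, rose from 52.6 to 816 (3.96 ± 0.42). Of 5 rows named KDM1B, after a histone demethylase, 3 fell and 2 rose, with KDM1B (BL19239) falling from 650.3 to 12.9 (-5.65 ± 0.49) and KDM1B (BL03138) from 1089.9 to 30.9 (-5.14 ± 0.40). Of 339 rows whose symbol starts with ZNF, a family stem picked after its values were seen, 88 rose and 21 fell, with a median of 1.41, and 29 were higher and 33 lower on ribosomal centring. Homeobox genes of other regions numbered 15 higher and 4 lower of 33, with ZEB2 (BL16274), a zinc finger homeobox repressor, rising from 175 to 2552 (3.87 ± 0.35). Of 22 further T-box and Ets rows 1 rose and 2 fell, or 4 and 1 after upper-quartile scaling. TBX2 (BL14067), of the T-box family, rose from 992 to 6009.8 (2.60 ± 0.31).

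Enzymes that modify foreign and endogenous small molecules fell more often than they rose. Of 118 cytochrome P450 rows 74 fell and 4 rose, median -3.12, and of 138 rows of conjugation, glutathione and export 58 fell and 15 rose. CYP2U1 (BL24655) fell from 4096 to 28.3 (-7.18 ± 0.55) and CYP3A5 (BL11277) fell from 2539 to 37.2 (-6.09 ± 0.40), both monooxygenases. The sulfotransferase row SULT1C4 (BL02658) fell from 631 to 6.78 (-6.54 ± 0.58). Rows of the drug exporter ABCC5 split, with ABCC5 (BL75757) falling from 10349.5 to 191 (-5.76 ± 0.36) and ABCC5 (BL95514) rising from 19.5 to 307 (3.97 ± 0.56), and PRDX1 (BL19979), a peroxiredoxin, rose from 37.5 to 518 (3.79 ± 0.47). Solute carriers numbered 138 lower and 54 higher of 317, and their median of -0.84 became 0.02 when totals were made equal. SLC7A7 (BL33619), an amino acid transporter subunit, rose from 17.9 to 551 (4.94 ± 0.53), and the zinc transporter SLC30A2 (BL11538) fell from 954 to 9.31 (-6.68 ± 0.56).

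Adhesion and matrix genes were divided by family. Cadherins and protocadherins numbered 14 higher and 2 lower of 26, while junction, polarity and integrin genes numbered 12 and 11 of 39, or 15 and 10 after upper-quartile scaling and 6 and 25 on ribosomal centring. PCDH18 (BL06533), a protocadherin listed at 19 hpf only, rose from 54.01 to 1966 (5.19 ± 0.38), and FAT1 (BL11237), a giant cadherin, from 25.03 to 945 (5.24 ± 0.44). CRB1 (BL02538), an apical polarity protein of epithelia, rose from 108 to 3256 (4.91 ± 0.35). PVRL4 (BL08550), a nectin of epithelial junctions, fell from 1024 to 19.2 (-5.74 ± 0.43), and the integrin row ITGB1 (BL17433) fell from 1115 to 48.7 (-4.52 ± 0.39). Collagens and basement membrane genes numbered 41 higher and 32 lower of 156, or 16 and 43 on ribosomal centring. THBS1 (BL07422), a thrombospondin, rose from 64.1 to 906 (3.82 ± 0.42) and COL14A1 (BL10188), a fibril-associated collagen, fell from 687 to 6.57 (-6.71 ± 0.55).

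Stress and lysosomal genes had more lower than higher calls as deposited. For apoptosis and immune genes the lower share lay near that of all rows and the higher share lay below that of all rows. Unfolded protein response and ATF genes numbered 17 lower and 3 higher of 41, or 7 and 11 when totals were made equal. ASNS (BL13938), an asparagine synthetase induced by amino acid shortage in mammals, fell from 3269.5 to 204 (-4.004 ± 0.36), and ATF3 (BL05149), a stress-induced factor, fell from 1073 to 88.5 (-3.60 ± 0.38). ATF4 (BL12507), the translational stress regulator upstream of both in mammals, lay at 14358 and 10307 (-0.48 ± 0.31), not called. Apoptosis genes numbered 16 lower and 5 higher of 55, or 8 and 8 when totals were made equal. Their lower share, 29.1%, was close to the 27.7% of all rows, and their higher share was 9.09% against 18.7%. TRAF2 (BL09930), an adaptor of TNF receptors, rose from 61.98 to 1491 (4.59 ± 0.38) and APAF1 (BL15582), the scaffold of the apoptosome, fell from 248 to 25.005 (-3.31 ± 0.61). Toll, NF-kB and complement genes numbered 16 lower and 6 higher of 53, turning to 10 and 11 under the same scaling. As deposited, their lower share was 30.2% and their higher share 11.3%. The cytokine feedback inhibitor SOCS2 (BL15241) fell from 1781 to 134 (-3.73 ± 0.36). Lysosome and autophagy genes numbered 24 lower and 4 higher of 57, with NPC1 (BL05311), a lysosomal cholesterol transporter, falling from 937 to 17.9 (-5.71 ± 0.44).

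**Figure D4:**
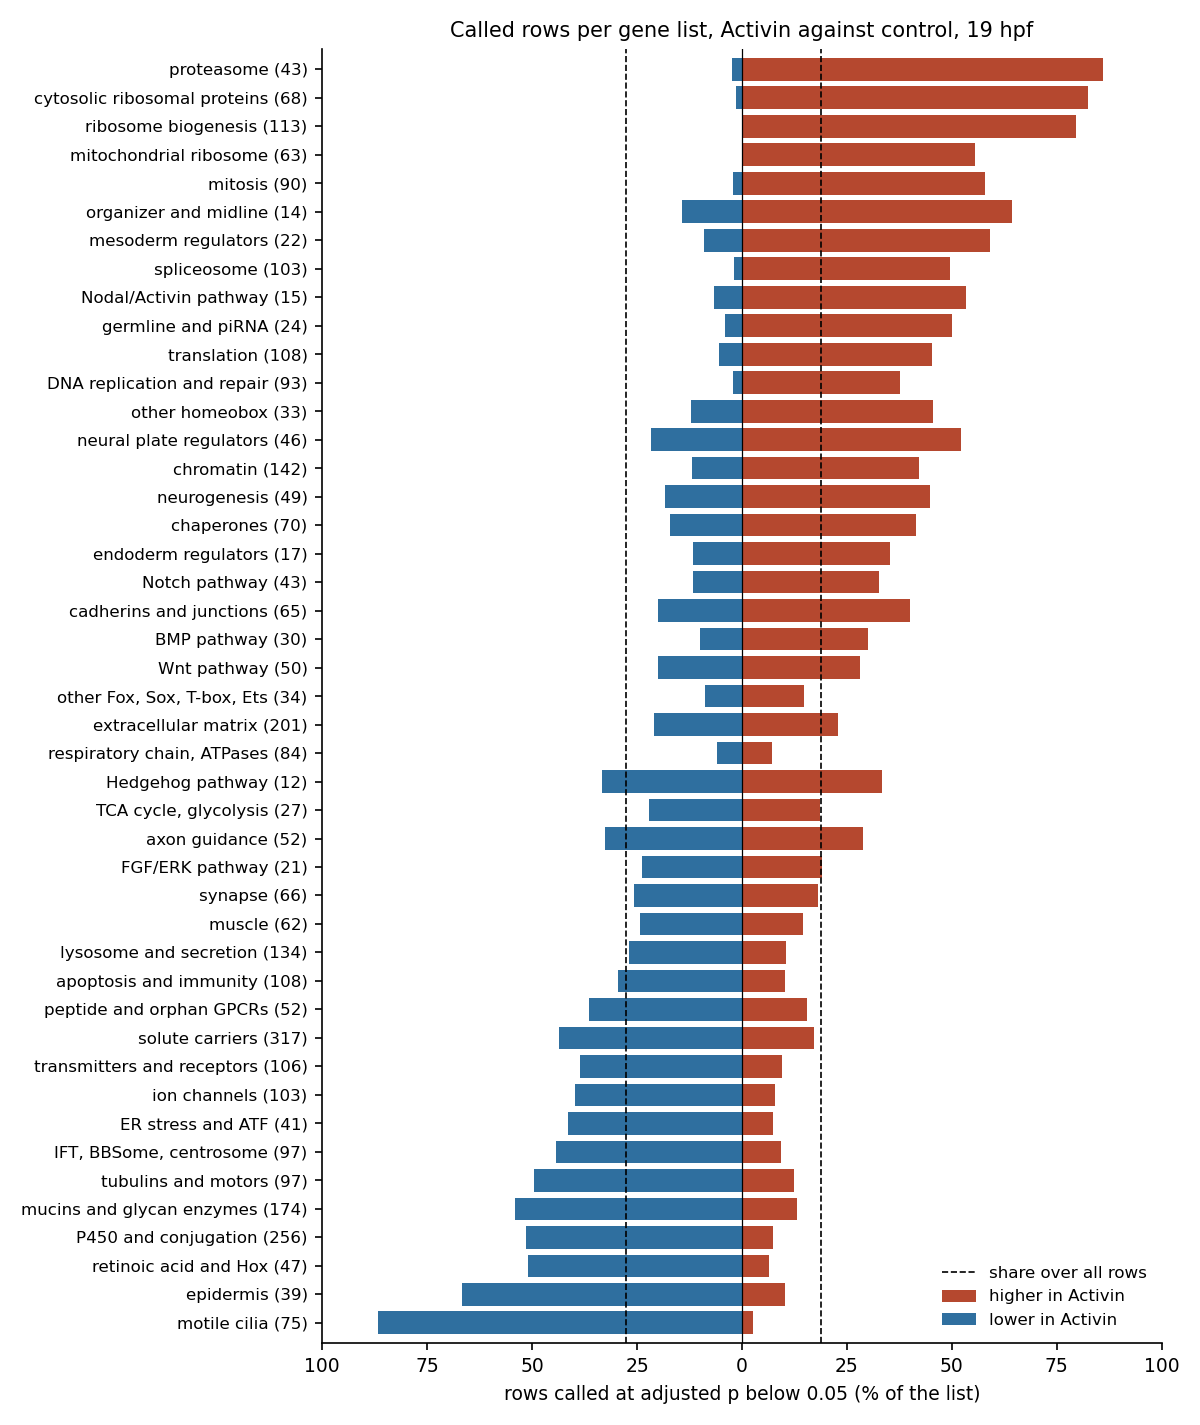
Share of rows called higher (red, right) and lower (blue, left) in Activin at 19 hpf for each gene list, in % of its rows, with the number of rows in parentheses. Dashed lines give the shares over all rows, 18.7% higher and 27.7% lower. Ribosome biogenesis has 0 lower of 113, and motile cilia have 65 lower and 2 higher of 75. On ribosomal centring translation has 14 higher and 24 lower of 108 and chromatin 21 and 38 of 142, while ribosome biogenesis keeps 68 higher and 1 lower.

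Of the rows listed at 19 hpf but not at 11 hpf, a larger share was lower than of other rows in each range of the mean. These were 3205 rows (19.2%), of which 241 (7.52%) were higher and 861 (26.9%) lower, against 2887 (21.3%) and 3779 (27.9%) of the 13528 rows in both tables. They were scarce, with a median mean of 15.6 normalized counts against 161, so the shares were read within ranges of the mean. Under 20 normalized counts 15.04% of 1928 such rows were lower, against 5.61% of 1675 rows in both tables. Between 20 and 100 normalized counts 40.7% of 1079 such rows were lower, against 18.1% of 3775 rows in both tables. Between 100 and 1000 the shares were 66.8% of 190 and 34.98% of 5974, and at 1000 or more they were 62.5% of 8 and 43.4% of 2104. Shares of higher calls between 20 and 100 were 12.05% and 19.7%. The split was not tested, and why a row is not listed at 11 hpf is not given in the sources used here. A row can be listed under another identifier with the same symbol, and 616 rows had a symbol that the 11 hpf table lacks, with 76 higher and 121 lower.

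**Figure D5:**
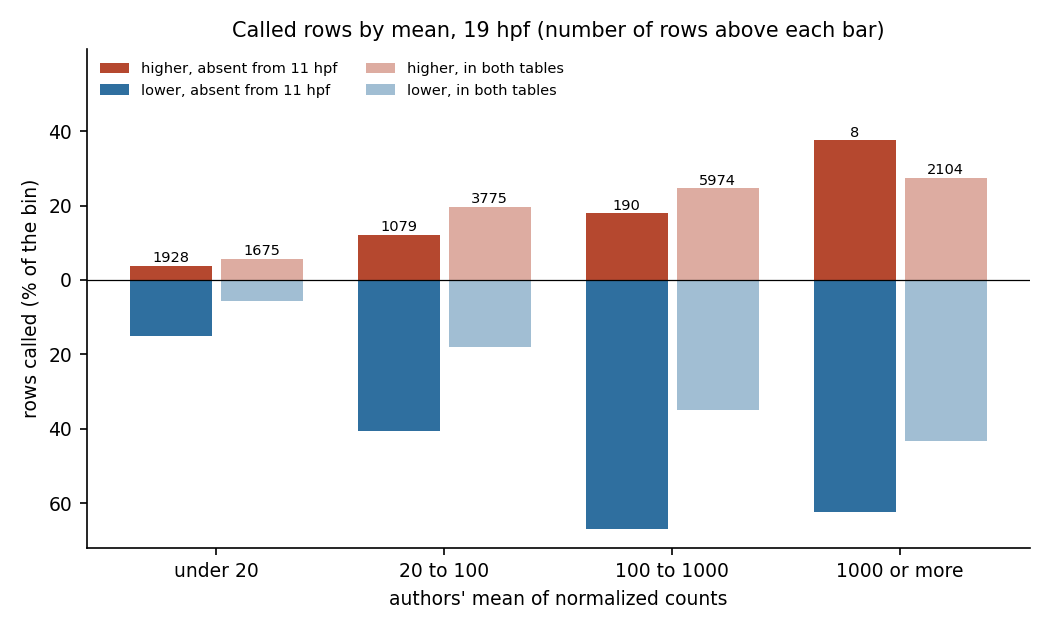
Share of rows called higher (up, red) and lower (down, blue) at 19 hpf, in % of rows in each range of the authors' mean of normalized counts, for rows absent from the 11 hpf table (dark) and rows in both tables (pale). From 20 to 100 counts the lower share is 40.7% for absent rows and 18.1% for the others.

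Among rows with a symbol that were absent at 11 hpf, the 8 largest rises included TECTA, ST8SIA2, GPR112, EN2, CELF3, PCDH18 and PLEKHO1 (BL22965), the last of these moving from 26.4 to 1866 (6.14 ± 0.41). The 8 largest falls included OVCH1, SLC17A6, SLC30A2 and the cytochrome P450 row CYP2U1 (BL17347), from 869.7 to 7.82 (-6.80 ± 0.56) in the authors' deposited table. VIM (BL97121), named after the intermediate filament vimentin, fell from 1281 to 12.2 (-6.71 ± 0.46). FASN (BL08748), named after fatty acid synthase, fell from 494 to 4.08 (-6.92 ± 0.66) and HSD3B7 (BL13899), after a steroid-modifying dehydrogenase, from 746 to 5.05 (-7.21 ± 0.63). By list, 35 of the 118 cytochrome P450 rows were absent at 11 hpf, 20 of them lower and 1 higher. Potassium channels had 18 absent of 46, 8 lower and 2 higher, and keratins and related genes 7 of 18, 6 lower and 0 higher. Ligand-gated receptors had 22 absent of 49, 3 lower and 2 higher. The mitosis list had 0 absent of 90, and axonemal dyneins and assembly factors 1 of 56.

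Rows without a usable symbol made up 5400 of the table and were called higher in 725 cases (13.4%) and lower in 1549 (28.7%), with 1359 and 1186 when totals were made equal. Rows with a symbol were called higher in 21.2% and lower in 27.3%. BL09026 rose from 244 to 24275 (6.64 ± 0.31) and BL97204 rose from 29.3 to 2746 (6.55 ± 0.39) in the authors' deposited table. BL04340 fell from 2383 to 6.66 (-8.48 ± 0.54) and BL08064 fell from 4162 to 17.9 (-7.86 ± 0.40).

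Rows that share a symbol did not always move together. Of 1522 symbols with several rows, 647 had at least 2 rows called in the authors' deposited table. Of these, 335 were called lower only, 120 higher only and 192 (29.7%) in both directions. The largest such family was CYP2U1, a cytochrome P450, with 33 lower and 0 higher of 52 rows and 18 rows absent from the 11 hpf table. GAL3ST1, after a galactose sulfotransferase, had 24 lower and 0 higher of 31 rows, and PKHD1L1, named for its likeness to fibrocystin, had 17 lower and 0 higher of 25. TRIM2, of the tripartite motif family, had 15 lower and 1 higher of 26 rows. The zinc finger families ran the other way, with ZNF678 at 8 higher and 0 lower of 21 rows and ZNF160 at 7 and 0 of 24. KLHL24, of the Kelch family, had 9 higher and 2 lower of 39 rows. SLC22A5, after a carnitine transporter, split, with 6 higher and 4 lower of 15 rows and log2 fold changes from -7.83 to 5.70. Among name stems of at least 30 rows, picked after their values were seen, GAL had 0 higher and 29 lower of 40, MFSD 0 and 18 of 30, TRIM 6 and 34 of 81, and DDX, RNA helicases, 20 and 0 of 32.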

How the data were processed

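Poly(A) RNA of ectodermal explants was sequenced from 4 groups of 2 libraries, and the 2 control and 2 Activin libraries of 19 hpf enter the comparison described. Per the submitters' processing notes, the tools were HISAT2, featureCounts and edgeR. Their versions, the genome build and the annotation are not given in the sources used here. However, per the file headers, the columns are named as DESeq2 names them, and which tool made the final values was not settled. The authors averaged normalized counts over libraries, and this mean is treated as a signal. Fold changes were deposited on the log2 scale, each with an SE. The test column is a score deposited by the authors, a Wald statistic, and it was checked that it equals the log2 fold change divided by its SE. Each row has a p-value from the authors and its adjusted form, which was checked to be a Benjamini-Hochberg adjustment over the 16733 rows.

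No refit with edgeR was made, since it needs counts per library, and the authors' adjusted p below 0.05 was used as deposited. Group means were rebuilt from mean and fold, and folds are given only where the lower mean was at least 3. Empty names, hypothetical proteins (Hypp), Ensembl identifiers and clone names did not count as symbols. Genes were matched by symbol to 45 lists with 83 roles. The members, lists and tests were chosen with earlier results of these data known. The patterns of some lists were corrected by name after values were seen, which removed NOL4, the EIF2AK genes, HSPG2, HSPBAP1 and HSPB11 from lists they do not belong to. Named genes were, among called rows with a symbol, a mean of at least 20 and a lower mean of at least 3, the 10 largest rises and falls, 8 of each among rows absent at 11 hpf, and up to 3 of each per role with the uncalled member of highest mean. LEFTY2, CHRD, GSC, OTX2, FOXJ1, KRT8, MKI67 and T were always eligible, 2 rows each way stand for those without a symbol, and the text names fewer. Some named genes are not reported here. The 10 rows of highest mean were chosen after their values were seen. Alternatives were other thresholds, a minimum mean of 20 and 4 scalings between treatments, with the Wald test and its adjustment redone. The Activin effects at 19 and 11 hpf, whose libraries are separate, were compared by a Wald test from both SEs, adjusted over 13528 rows, and the script was tested on simulated data. Computation used Python 3.11.15, numpy 2.4.6, pandas 2.3.3, scipy 1.17.1 and matplotlib 3.10.9.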

Additional observations from a re-analysis of the deposited data

Results flagged for a closer look

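The Activin effect at 19 hpf was set against that at 11 hpf for the 24 most changed or always eligible genes listed at both times. The groups of both times hold separate libraries, 2 per group. For 9 of the 24 the difference passed the Wald test with Benjamini-Hochberg adjustment over 13528 rows, of which 2268 passed. Most of the 24 were picked for a large change at 19 hpf, which favours a difference from 11 hpf. The 9 of 24 is therefore no share to compare with the 2268 of 13528. The adjusted p of the 9 ran from 6.72e-19 for TTN to 0.00589 for TMEM79. Values are log2 fold changes ± SE of the authors' deposited tables, and the difference is 19 minus 11 hpf.

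MKI67 was -0.53 ± 0.33 at 11 hpf and 2.62 ± 0.36 at 19 hpf, a difference of 3.15. FOXJ1 was -4.79 ± 0.42 and -1.90 ± 0.33, a difference of 2.90, so its fall was smaller at the later time. OTX2 rose by 3.39 ± 0.47 and then by 5.57 ± 0.31, a difference of 2.18. FEZF2 was 0.65 ± 1.32, not called, and then 6.24 ± 0.39, a difference of 5.59. MUC2 (BL97089) was 1.05 ± 0.87 and 6.14 ± 0.35, a difference of 5.10.

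TTN (BL96427) was 0.67 ± 0.75 and -7.23 ± 0.32, a difference of -7.90. The PXDN rows moved together, BL12043 from -1.20 ± 0.80 to -7.97 ± 0.33, a difference of -6.77, and BL21735 from -1.33 ± 0.69 to -7.99 ± 0.37, a difference of -6.66. TMEM79 was -4.36 ± 0.76 and -7.51 ± 0.49, a difference of -3.14.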

How the results depend on the processing

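Scaling between treatments moved many counts, and restrictions on rows moved those of rows absent at 11 hpf. Over all rows, 5653 were higher with equal totals, 1277 were higher and 7203 lower on ribosomal centring, and 3091 lower rows had a usable symbol. Among rows absent at 11 hpf, 436 were higher with equal totals, 116 on ribosomal centring and 137 at an adjusted p below 0.01. Counting by symbol, 76 were higher and 121 lower. At a mean of at least 100, 37 were higher and 132 lower. The restrictions to usable symbols and to means of at least 100 were chosen after seeing the data. On ribosomal centring the median turned for 3 groups with at least 50% of rows called in its direction. These were Nodal/Activin effectors (-0.062), SoxB, SoxC and Zic genes (-0.014) and small ribosomal subunit proteins (-0.038). Medians of groups with a smaller called share also turned, among them chromatin genes (-0.14), the spliceosome (-0.048) and Wnt receptors (-0.68). On ribosomal centring NEO1 moved to -0.70 and SOX2 to -0.87. Of the alternative values of the other genes named, 681 kept direction and call, 12 became called and 9 were no longer called. The cause was not tested, beyond fewer rows entering under the restrictions.

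No paired analysis was possible because values per library were not analysed here, and leaving out each replicate was not run for the same reason, nor were count-level normalization and another tool. Both groups hold 2 pooled libraries, and the pull of either pool on a change was not tested. Fold changes of rows with a mean under 20 have a median SE above 1.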
